A study of Homo sapiens with 6 samples.

Results

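The aldehyde dehydrogenases (ALDH) of WM164, an established human melanoma cell line, were followed through 10 named genes: ALDH1A1, ALDH1A2, ALDH1A3, ALDH1B1, ALDH1L2, ALDH2, ALDH3A2, ALDH3B1, ALDH7A1 and ALDH9A1. They were taken by gene name from a count table of 58870 genes, in which all 10 were present, and they belong to a human family of 19 such enzymes. RNA sequencing was performed on 6 libraries, 3 from WM164 cells overexpressing green fluorescent protein (GFP) as the control and 3 from WM164 cells overexpressing T-MGM, a single protein in which the small MAF transcription factor MAFG and the melanocyte lineage factor MITF are held together by a flexible linker. According to the study's methods, inserts were delivered by lentiviral vectors with an EF1α promoter and blasticidin selection, so that both groups carried a vector and a drug resistance gene, and no clones were described. The medium of both was RPMI containing serum and antibiotics.

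Aldehyde dehydrogenases oxidize aldehydes to carboxylic acids with NAD or NADP as cofactor. The ALDH1A enzymes perform the last step in making retinoic acid from vitamin A: retinol is first oxidized to retinaldehyde, retinaldehyde is oxidized by ALDH1A enzymes, and the retinoic acid that results binds nuclear receptors and is cleared by CYP26 enzymes. Other family members remove reactive aldehydes from ethanol, lipid peroxidation or amino acid breakdown, or work in folate metabolism. In melanoma, ALDH activity and the ALDH1A enzymes in particular have been studied as features of tumour-initiating and drug-tolerant cells.

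The promoters are shown first, because MITF is known to bind the E-boxes CACGTG and CATGTG and small MAF proteins are known to bind elements built on TGCTGA or TGANNNNGC. A RefSeq table on GRCh38.p14, with windows from 250 bases before to 50 bases after a transcription start, held 11 windows for 8 members and none for ALDH1L2 and ALDH2. All motifs were searched on both strands, with overlaps allowed. CACGTG was present in windows of ALDH3A2 and ALDH3B1 and CATGTG in windows of ALDH1B1 and ALDH3B1, where 7.26% and 11.1% of all 35114 full-length promoter windows held them. TGCTGA was present in 5 windows of 4 members (ALDH1A1, ALDH3A2, ALDH3B1 and ALDH7A1), against 17.3% of all windows. TGANNNNGC was present in 2 windows (ALDH1A1 and ALDH3A2), against 41.8% of all windows. No window of ALDH1A2, ALDH1A3 or ALDH9A1 held any of these letters.

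The 250 bases upstream of the start, 5′ to 3′ on the strand of the gene, are given for 3 members whose transcripts differed between the groups. The second ALDH3A2 window was chosen as the one with an E-box upstream of its start, ALDH1A3 as the most abundant ALDH1A gene, and ALDH1A1 as the member that was lower by the largest factor. Capitals mark motif matches.
ALDH3A2, second window, chr17:19648501-19648750, plus strand: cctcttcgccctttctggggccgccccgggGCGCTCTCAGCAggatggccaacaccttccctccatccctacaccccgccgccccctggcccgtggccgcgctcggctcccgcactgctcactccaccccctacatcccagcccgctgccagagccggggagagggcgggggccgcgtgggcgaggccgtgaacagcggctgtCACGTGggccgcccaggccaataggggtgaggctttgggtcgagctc
ALDH1A3, chr15:100879581-100879830, plus strand: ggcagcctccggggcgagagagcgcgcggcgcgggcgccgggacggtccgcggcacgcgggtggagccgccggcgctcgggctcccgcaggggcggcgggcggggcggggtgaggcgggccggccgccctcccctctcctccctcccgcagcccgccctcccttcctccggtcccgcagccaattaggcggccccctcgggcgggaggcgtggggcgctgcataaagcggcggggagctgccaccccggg
ALDH1A1, chr9:72953054-72953303, minus strand: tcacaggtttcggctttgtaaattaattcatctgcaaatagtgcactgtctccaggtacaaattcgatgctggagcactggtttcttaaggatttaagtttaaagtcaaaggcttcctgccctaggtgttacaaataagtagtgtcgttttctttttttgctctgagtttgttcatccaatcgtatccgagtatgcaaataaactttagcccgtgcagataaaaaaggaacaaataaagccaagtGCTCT
In ALDH3A2 the palindromic CACGTG lay at positions -47 to -42 relative to the start, and the first run of capitals joined a TGANNNNGC match at -220 to -212 with a TGCTGA match at -214 to -209, both on the reverse strand and overlapping. The ALDH1A1 match at the end of its line was a TGANNNNGC on the reverse strand that continued past the start, from -5 to 3. These are matches of letters and not measured binding sites.

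Sequencing was deeper in the libraries labelled T-MGM, with 44577774 to 59250663 counts in total against 35057239 to 38738065 for GFP. The genes of the construct did not check the labels, since MAFG had a log2 fold change of -0.06 (standard error 0.04, adjusted p 0.236 in DESeq2) and MITF one of 0.08 (standard error 0.02, adjusted p 4.8e-07 in DESeq2), so the directions below are taken from the labels. The melanocytic markers MITF, SOX10, MLANA, PMEL, TYR and DCT were expressed, with a summed level of 964 to 977 TPM (a level scaled for transcript length and for the summed transcripts of a library) in GFP and 831 to 865 TPM in T-MGM libraries, and TYRP1 alone was close to 0. Among them the pigment genes DCT, MLANA and TYR stood lower with T-MGM than with GFP, by log2 ratios of -2.49, -0.68 and -0.35. The pigment gene PMEL and the lineage factor SOX10 stood slightly higher in normalized counts, at 0.05 and 0.11 (adjusted p 0.00559 and 4.24e-10 in DESeq2). The groups did not overlap in normalized counts for any of these genes. In TPM, however, PMEL, SOX10 and MITF were lower with T-MGM. Their means were 252, 416 and 138 TPM in GFP and 237, 403 and 133 TPM in T-MGM libraries. Summed keratinocyte, leukocyte and endothelial markers reached at most 0.16, 0.03 and 0.34 TPM in any library. Of 4 fibroblast markers, COL1A1, LUM and PDGFRA were higher in T-MGM libraries and DCN did not pass, and their summed level was 3.81 to 4.83 TPM in GFP and 5.34 to 6.69 TPM in T-MGM libraries; whether this bears on any ALDH gene was not tested.

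The comparison of T-MGM with GFP libraries asked how transcript levels of these enzymes stood when the tethered dimer was overexpressed. Of the 10 members, 4 were higher (ALDH1L2, ALDH3A2, ALDH7A1 and ALDH9A1), 2 were lower (ALDH1A1 and ALDH1A3) and 4 did not pass an adjusted p of 0.05 (ALDH1A2, ALDH1B1, ALDH2 and ALDH3B1). The 6 that passed were 60% of the members, where 38.4% of the 19135 genes tested passed in either direction, 19.2% higher and 19.2% lower. ALDH1L2 alone changed by over 2-fold, as did 4.63% of tested genes. In the same 6 members no T-MGM library lay within the range of the GFP libraries in normalized counts, where this held for 46.8% of tested genes. The median log2 fold change of the members was 0.05, beside -0.0027 over all genes tested. Of the other members that passed, ALDH1A1 was 1.95-fold lower and the rest differed by at most 1.34-fold.

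**Figure D1:**
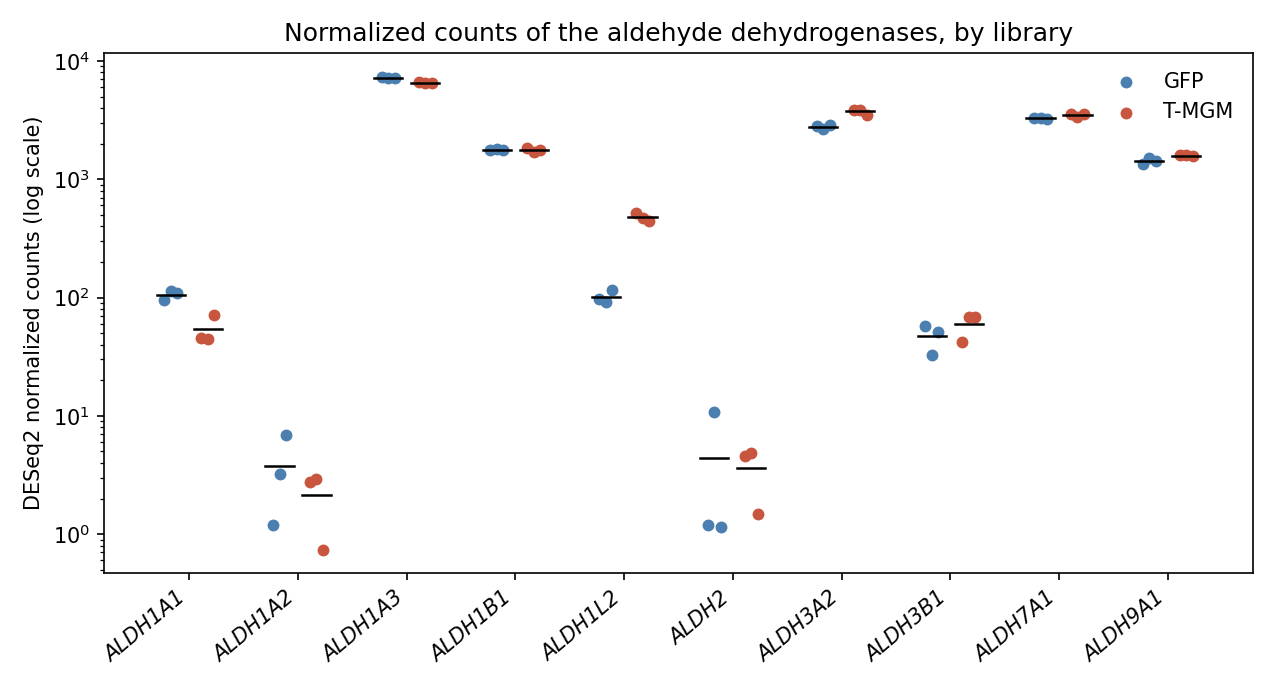
Normalized counts (log scale) of the 10 aldehyde dehydrogenases in each of the 3 GFP and 3 T-MGM libraries; points are libraries and black bars are group means. The groups are far apart for ALDH1L2 (means of 101 and 480) and close for ALDH1B1 (means of 1774 and 1768), and ALDH1A2 and ALDH2 lie under 11 in every library.

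The mitochondrial folate enzyme ALDH1L2 (ENSG00000136010.14; chr12:105019784-105107643, minus strand), which oxidizes formyl-tetrahydrofolate and yields NADPH, showed the largest difference. It had 97.1, 92.0 and 115 normalized counts in GFP libraries 1 to 3 and 523, 474 and 444 in T-MGM libraries 1 to 3. The lowest T-MGM library was well above the highest GFP library. The log2 fold change was 2.24 (standard error 0.14, adjusted p 2.85e-58 in DESeq2), a 4.73-fold higher level with 95% limits of 3.92 and 5.70. In TPM its level was 0.42 ± 0.19 in GFP and 1.56 ± 0.04 in T-MGM libraries (mean ± SD, n = 3), so that it remained low per transcript length in both groups. On a log2(TPM + 1) scale, which compresses low levels, the difference was 0.86, and with a pseudocount of 0.1 it was 1.74, both past the threshold. Exons of ALDH1L2 share 131 bases with WASHC4 and 145 bases with C12orf45 on the opposite strand, and both of those genes were lower, by log2 fold changes of -0.12 and -0.32.

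The genes whose profile over the 6 libraries was most like that of ALDH1L2, by Pearson's r of log2(normalized count + 1) among 12654 genes, were the receptor phosphatase PTPRF (r = 0.9998), the actin-binding SVIL (r = 0.9997) and the endocytic receptor LRP2 (r = 0.9997). Their log2 fold changes were 1.15, 0.35 and 2.08. All of these values come from the same libraries, which fall into 2 groups, so that any gene with a clear group difference and little spread scores high.

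Among the ALDH1A enzymes, which form retinoic acid, ALDH1A3 (ENSG00000184254.17; chr15:100877714-100916626, plus strand) was the main transcript. Its normalized counts were 7364, 7227 and 7117 in GFP libraries and 6626, 6458 and 6447 in T-MGM libraries. Every T-MGM library was below every GFP library, but the difference was small, at -0.15 on the log2 scale (standard error 0.02, adjusted p 1.18e-09 in DESeq2), or 10.04% lower. In TPM the level fell from 48.4 ± 1.58 to 38.6 ± 1.35 (mean ± SD, n = 3). The difference in the TPM fits was -0.32 to -0.33, on a scale that moved the median gene by -0.13 to -0.15. ALDH1A3 made up 97.3 to 98.6% of the summed ALDH1A TPM in each library. Its exons share 1715 bases with the antisense gene ALDH1A3-AS1, which had 64 to 156 counts per library; how reads of the shared bases were divided between the genes was not tested.

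ALDH1A1 (ENSG00000165092.13; chr9:72900671-73080442, minus strand), the cytosolic retinaldehyde dehydrogenase often used as a stem cell marker, was lower by a larger factor from a much lower level. It had 95.9, 114 and 108 normalized counts in GFP libraries and 45.6, 44.9 and 70.8 in T-MGM libraries. The groups did not overlap, and T-MGM library 3 was the highest of its group. The log2 fold change was -0.97 (standard error 0.24, adjusted p 2.30e-04 in DESeq2), just inside the 2-fold limit, with a 1.95-fold lower level. Without T-MGM replicate 3 it was -1.23, and without GFP replicate 1 it was -1.04, each past 2-fold. Leaving out any other library gave -0.85 to -0.95, inside 2-fold. ALDH1A1 was at 1.08 ± 0.10 TPM in GFP and 0.56 ± 0.13 TPM in T-MGM libraries (mean ± SD, n = 3), and the limma adjusted p was 0.0724 on log2(TPM + 1) without a filter on low levels. ALDH1A2 (ENSG00000128918.15), the retinaldehyde dehydrogenase of the early embryo, had 1, 3 and 6 counts in GFP against 3, 3 and 1 in T-MGM libraries, and at this depth no difference was detectable and no fold is given.

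ALDH3A2 (ENSG00000072210.18; chr17:19648136-19685760, plus strand), the fatty aldehyde dehydrogenase of the endoplasmic reticulum whose loss causes Sjögren-Larsson syndrome, had 2801, 2656 and 2901 normalized counts in GFP libraries and 3859, 3846 and 3525 in T-MGM libraries. All T-MGM libraries were above all GFP libraries. The log2 fold change was 0.43 (standard error 0.04, adjusted p 1.03e-24 in DESeq2), or 34.3% higher, with 95% limits of 1.27-fold and 1.42-fold. In the TPM fits the difference was 0.27 to 0.28 and passed as well.

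ALDH7A1 (ENSG00000164904.18; chr5:126531200-126595362, minus strand) oxidizes a semialdehyde of lysine breakdown and betaine aldehyde. It had 3288, 3296 and 3231 normalized counts in GFP libraries and 3534, 3371 and 3594 in T-MGM libraries, giving a log2 ratio of 0.10 (standard error 0.03, adjusted p 0.011 in DESeq2). ALDH9A1 (ENSG00000143149.12; chr1:165662216-165698562, minus strand), an aminobutyraldehyde dehydrogenase that works in carnitine synthesis, had 1347, 1514 and 1432 in GFP against 1595, 1593 and 1561 in T-MGM libraries, giving a log2 ratio of 0.14 (standard error 0.05, adjusted p 0.0142 in DESeq2). The groups did not overlap for either gene, but both calls were lost with total counts as the scaling (adjusted p of 0.327 and 0.163) and in all 3 TPM fits, where ALDH7A1 was at 0.01 and ALDH9A1 turned to -0.02. The TPM scale moved the median gene by -0.13 to -0.15, and whether either gene differed from that median was not tested. The ALDH7A1 call was also lost without GFP replicate 3, T-MGM replicate 1 or T-MGM replicate 3 (DESeq2 adjusted p of 0.0625, 0.0575 and 0.109), and the ALDH9A1 call without GFP replicate 1, T-MGM replicate 1 or T-MGM replicate 2 (0.154, 0.0595 and 0.0535 in DESeq2).

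ALDH1B1 (ENSG00000137124.8), a mitochondrial enzyme of acetaldehyde and retinaldehyde oxidation, had 1752, 1801 and 1770 normalized counts in GFP against 1825, 1703 and 1775 in T-MGM libraries. The values were interleaved, the adjusted p was 0.950 in DESeq2, and the 95% limits of the ratio were 0.937 and 1.06. ALDH3B1 (ENSG00000006534.16), a membrane-associated enzyme for lipid-derived aldehydes, had 57.6, 32.5 and 51.4 in GFP against 42.0, 68.3 and 67.9 in T-MGM libraries. Its groups overlapped, and the log2 fold change of 0.34 (standard error 0.30, adjusted p 0.426 in DESeq2), which turned to -0.05 to -0.14 in the TPM fits, had limits of 0.838-fold and 1.91-fold. ALDH2 (ENSG00000111275.13), the mitochondrial enzyme that clears acetaldehyde after ethanol intake, had 1, 10 and 1 counts in GFP against 5, 5 and 2 in T-MGM libraries, near the floor of 3 counts, and no fold is given.

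**Figure D2:**
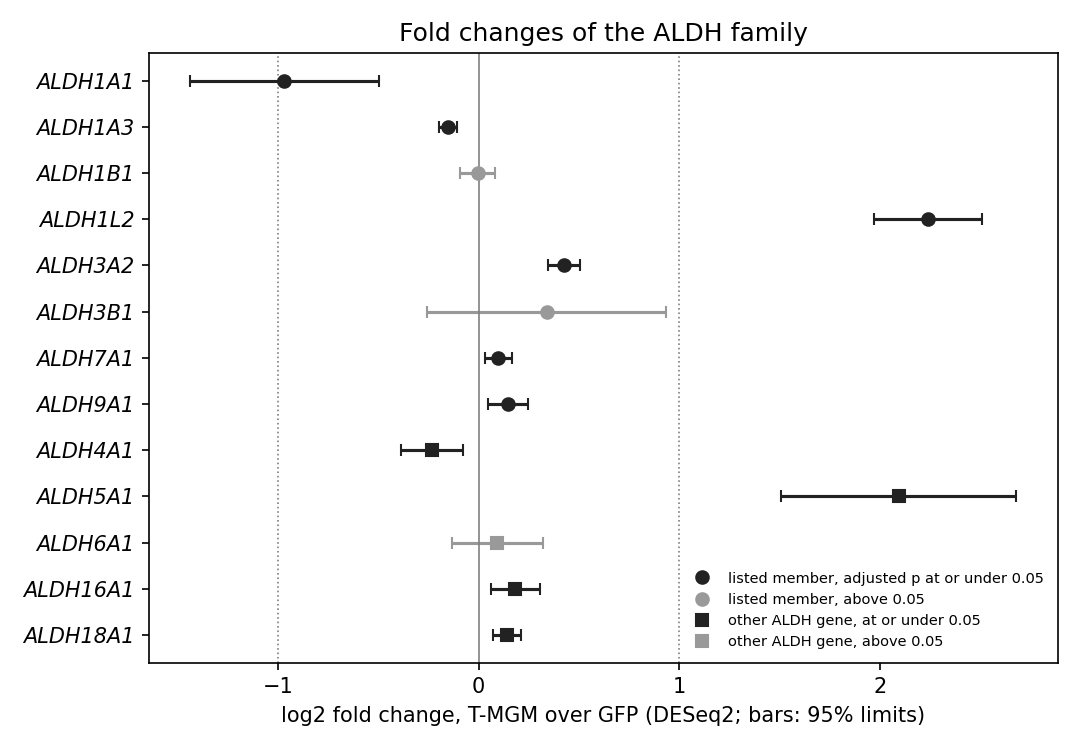
Log2 fold changes of T-MGM over GFP with 95% limits from DESeq2 for the ALDH genes that averaged 10 or more normalized counts; circles are the listed members, squares the other family members, black points had an adjusted p at or under 0.05, and dotted lines mark 2-fold. ALDH1L2 at 2.24 and ALDH5A1 at 2.09 stand apart, ALDH1A1 at -0.97 lies on the lower side, and the other called genes lie between -0.23 and 0.43.

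Levels can be set beside each other only per transcript length. By TPM the GFP order began with ALDH1A3 at 48.4 ± 1.58, ALDH7A1 at 38.6 ± 0.60 and ALDH3A2 at 28.1 ± 0.92 (mean ± SD, n = 3). These 3 did not overlap one another. ALDH9A1 at 12.8 ± 1.88 and ALDH1B1 at 12.1 ± 0.23 overlapped, and ALDH1A1 at 1.08 followed after a gap. ALDH3B1 at 0.48 and ALDH1L2 at 0.42 overlapped, as did ALDH1A2 at 0.11 and ALDH2 at 0.01 at the end.

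In T-MGM libraries ALDH7A1 at 38.9 ± 0.60 and ALDH1A3 at 38.6 ± 1.35 TPM could not be told apart at the top, with ALDH3A2 at 34.1 ± 2.04 next (mean ± SD, n = 3). ALDH9A1 at 12.6 and ALDH1B1 at 10.9 did not overlap there. ALDH1L2 at 1.56 stood above ALDH1A1 at 0.56, which overlapped ALDH3B1 at 0.44. ALDH3A2 thus came closer to the first 2 genes, and ALDH1L2 moved from the eighth to the sixth place. The summed TPM of the members was 139 to 144 in GFP and 134 to 142 in T-MGM libraries, ranges that overlap. ALDH1A3 held 33.6 to 34.8% of that sum in GFP and 27.9 to 28.3% in T-MGM libraries, and ALDH1L2 held 0.20 to 0.46% and 1.10 to 1.16%. By normalized counts per kilobase of annotated exon the order differed, with ALDH1A3 first in both groups and ALDH1B1 second, and only 4 members in GFP and 3 in T-MGM libraries kept their place. The same 5 genes filled the first 5 places by either measure.

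**Figure D3:**
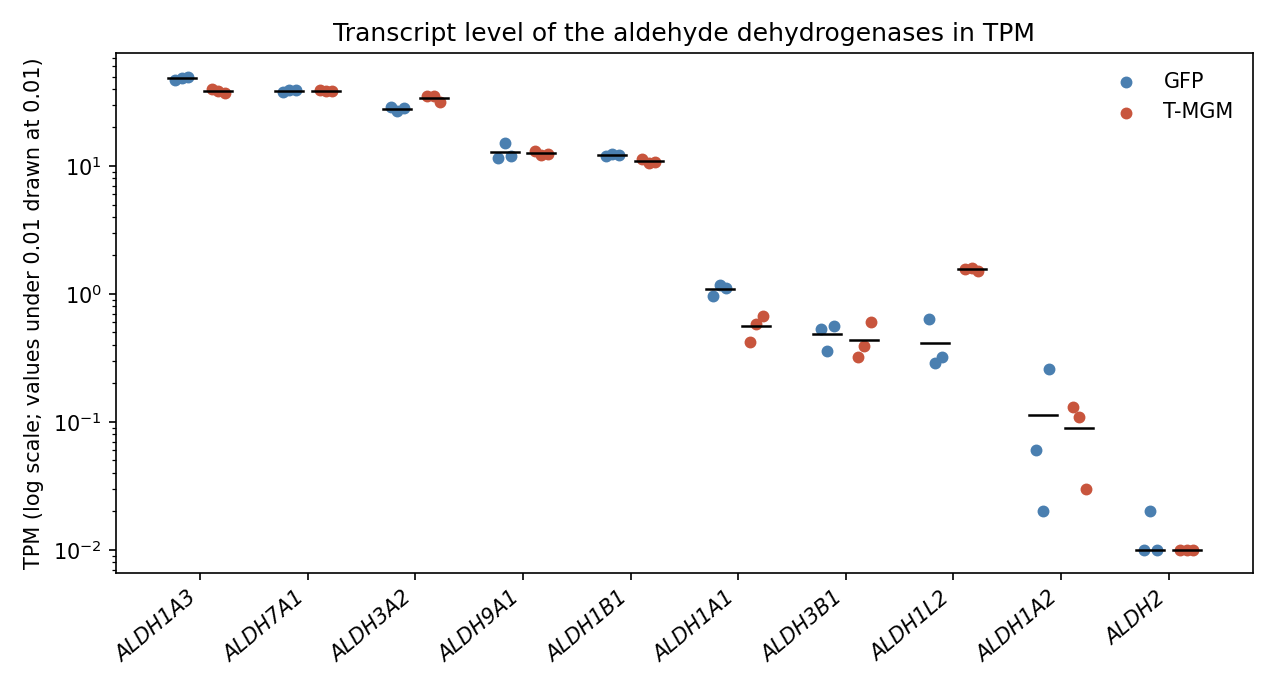
TPM (log scale) of the 10 members in each library, ordered by the GFP mean; points are libraries, bars are group means, and values under 0.01 are drawn at 0.01. The first 5 genes lie above 10 TPM in all libraries, and ALDH1A1, ALDH3B1, ALDH1L2, ALDH1A2 and ALDH2 lie under 2 TPM.

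Of the 9 other family members, 7 were tested, of which 3 were higher, 1 was lower (57.1% in all, against 38.4% of all genes tested) and 1 was over 2-fold. That one was ALDH5A1 (ENSG00000112294.12), succinate semialdehyde dehydrogenase of the GABA breakdown path, with 18.0, 24.9 and 23.99 normalized counts in GFP against 100.4, 79.0 and 106 in T-MGM libraries. Its groups were far apart, with a log2 fold change of 2.09 (standard error 0.30, adjusted p 2.04e-11 in DESeq2) and a 4.27-fold higher level. That level was low, with means of 0.10 TPM in GFP and 0.41 TPM in T-MGM libraries. The filtered TPM fits, with their minimum of 0.5 TPM, did not test it, and it passed in the unfiltered fit (adjusted p 0.00782 in limma). Exons of ALDH5A1 share 239 bases with GPLD1 on the opposite strand, which did not pass (adjusted p 0.492 in DESeq2). ALDH18A1, which makes the proline precursor pyrroline-5-carboxylate, was at 0.14 (standard error 0.04, adjusted p 2.99e-04 in DESeq2), and the little-studied ALDH16A1 at 0.18 (standard error 0.06, adjusted p 0.00951 in DESeq2). Both calls were lost in the TPM fits, and that of ALDH16A1 also after correction for GC content and length (adjusted p 0.725 in DESeq2), with total counts as scaling (0.0862), with the replicate block (0.0626), without GFP replicate 3 (0.0529) and without T-MGM replicate 2 (0.0543). Exons of ALDH16A1 share 152 bases with PIH1D1 on the opposite strand, which was also higher, at 0.25 (adjusted p 0.00571 in DESeq2). ALDH4A1, a mitochondrial enzyme of proline breakdown, was at -0.23 (standard error 0.08, adjusted p 0.0105 in DESeq2), with overlapping groups, and its call was lost without GFP replicate 3, T-MGM replicate 1 or T-MGM replicate 2 (DESeq2 adjusted p of 0.116, 0.111 and 0.0715). ALDH6A1, of valine breakdown, had means of 275 and 294 normalized counts and did not pass (adjusted p 0.597 in DESeq2). ALDH1L1, ALDH3A1, ALDH3B2 and ALDH8A1 had at most 8, 4, 10 and 9 counts in any library, so that the cytosolic relative of ALDH1L2 was close to the floor in both groups.

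**Figure D4:**
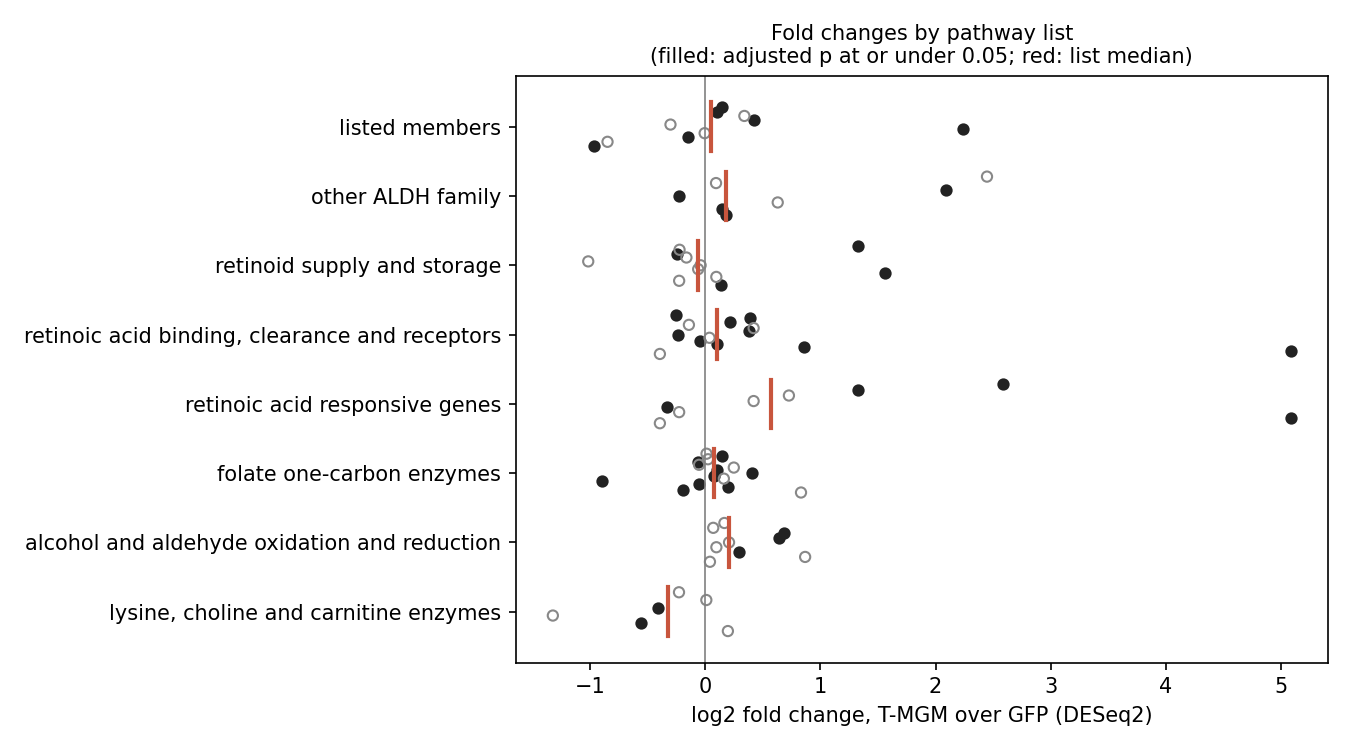
Log2 fold changes of T-MGM over GFP for the tested genes of the members and of 7 lists of related genes; filled points had a DESeq2 adjusted p at or under 0.05, open points did not, and red bars are list medians. The called genes over 2-fold are CYP26B1 at 5.08, TGM2 at 2.59, ALDH1L2 at 2.24, ALDH5A1 at 2.09, LRAT at 1.56 and STRA6 at 1.33.

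Around the ALDH1A step, genes of retinoid supply and storage included 11 that were tested, of which 3 were higher and 1 was lower (36.4%, near the 38.4% of all genes tested), with a median log2 fold change of -0.06. In the filtered TPM fits 2 genes of the list were higher and 3 lower, and with total counts as scaling 2 and 2. STRA6, the retinol uptake receptor, had 60.0, 40.1 and 38.8 normalized counts in GFP against 118, 123 and 108 in T-MGM libraries, giving a log2 ratio of 1.33 (standard error 0.24, adjusted p 1.51e-07 in DESeq2). LRAT, which esterifies retinol for storage, rose from 22.4 ± 5.62 (mean ± SD, n = 3) to 66.0 ± 3.15 normalized counts, giving a log2 ratio of 1.56 (standard error 0.32, adjusted p 7.38e-06 in DESeq2). Both genes had non-overlapping groups at low levels. The retinol dehydrogenase RDH14 was at -0.24 (adjusted p 0.0119 in DESeq2), RDH13 did not pass, and DGAT1, an acyltransferase that can also esterify retinol, was at 0.14 (adjusted p 0.0402 in DESeq2) but turned to -0.01 after correction for GC content and length and to -0.04 to -0.05 in the TPM fits. The RDH14 call was lost without GFP replicate 1 or T-MGM replicate 1 (DESeq2 adjusted p of 0.116 and 0.0697), and that of DGAT1 without any one of GFP replicates 2 and 3 and T-MGM replicates 1 and 2 (0.0804 to 0.199 in DESeq2). Both calls were also lost with the replicate block (0.0716 and 0.129 in DESeq2), and RDH14 on log2(TPM + 1) without a filter (0.0807 in limma). DGAT1 was further lost with total counts as scaling, with at least 10 counts in 3 libraries and without independent filtering (0.266, 0.0716 and 0.0678 in DESeq2).

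Downstream of retinoic acid, 13 genes of its binding, clearance and receptors were tested, of which 6 were higher and 3 lower (69.2%, against 38.4% of all genes tested), with a median of 0.10. The split by direction depended on the scale. In the filtered TPM fits 3 genes of the list were higher and 5 lower, and with total counts as scaling 4 and 4. CYP26B1, which hydroxylates retinoic acid for removal, had 0, 4 and 3 counts in GFP against 96, 95 and 121 in T-MGM libraries. Every T-MGM library was far above every GFP library, with a log2 fold change of 5.08 (standard error 0.60, adjusted p 4.49e-16 in DESeq2), and with GFP counts near the floor its fold had 95% limits of 14.9 and 76.9. It was 5.68 without GFP replicate 2, 4.53 without GFP replicate 1, and 0.96 and 3.01 on log2 of TPM with pseudocounts of 1 and 0.1, and it passed in each. FABP5, a fatty acid binding protein that also carries retinoic acid, rose by 0.85 (standard error 0.03, adjusted p 2.45e-179 in DESeq2), from a mean of 3675 to 6639 normalized counts. The receptor RXRG was at -0.25 (standard error 0.03, adjusted p 5.3e-15 in DESeq2) and the receptor cofactor NRIP1 at -0.24 (standard error 0.03, adjusted p 3.8e-14 in DESeq2). The related receptors RXRB and RXRA, named here after their values were seen, were higher, at 0.39 and 0.21 (adjusted p 2.97e-05 and 0.0294 in DESeq2). The main retinoic acid receptor transcript, RARA, chosen here after its values were seen, was at 0.38 (standard error 0.05, adjusted p 1.03e-13 in DESeq2).

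A list of 14 names of genes known to respond to retinoic acid, 13 of which were in the count table, overlapped with the 2 lists above. Of its 8 tested genes 3 were higher (CYP26B1, STRA6 and TGM2) and 1 was lower (50% of those tested, against 38.4%), with a median of 0.57. That median lay between the values of RARB and RARRES3, both with group means under 10 normalized counts. It therefore does not show a shift of the list. TGM2, a transglutaminase, had 34.8, 47.6 and 43.4 normalized counts in GFP against 291, 236 and 233 in T-MGM libraries, giving a log2 ratio of 2.59 (standard error 0.20, adjusted p 5.3e-36 in DESeq2). The retinaldehyde reductase DHRS3 and RARRES3 did not pass (adjusted p 0.467 and 0.589 in DESeq2), and RARB had means of 4.5 and 6.0 normalized counts.

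Around ALDH1L2, all 15 folate one-carbon genes were tested, and 5 were higher, 4 were lower (60%, against 38.4% of all genes tested) and none was over 2-fold, with a median of 0.08. The glycine cleavage gene GLDC had 870 ± 41.2 normalized counts in GFP and 469 ± 49.0 with T-MGM (mean ± SD, n = 3), giving a log2 ratio of -0.89 (standard error 0.08, adjusted p 8.69e-26 in DESeq2). MTHFD1L, which releases formate in mitochondria, was at 0.41 (standard error 0.04, adjusted p 4.63e-20 in DESeq2). That call was lost in the TPM fits, in which 0 folate genes were higher and 4 to 6 were lower. Over all genes, 20.8 to 21.8% of the calls in those fits were higher, and the median gene stood at -0.13 to -0.15. No gene of this list approached the difference of ALDH1L2.

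Of 9 tested genes of alcohol and aldehyde oxidation and reduction, 3 were higher and 0 lower at the adjusted threshold (33.3%, below the 38.4% of all genes tested), with a median of 0.21. They were catalase, CAT, at 0.64 (standard error 0.05, adjusted p 1e-31 in DESeq2), the carbonyl reductase CBR1 at 0.68 (standard error 0.08, adjusted p 3.64e-15 in DESeq2) and the aldehyde reductase AKR1A1 at 0.29 (standard error 0.05, adjusted p 2.61e-09 in DESeq2), the last of which was lost in the TPM fits. Of 6 tested genes next to ALDH7A1 and ALDH9A1 in lysine, choline and carnitine metabolism, 0 were higher and 2 were lower (33.3%, against the same 38.4%), with a median of -0.32. AASS, the first enzyme of lysine breakdown in mitochondria, was at -0.56 (standard error 0.05, adjusted p 1.4e-29 in DESeq2), and DHTKD1, a later enzyme of that path, at -0.41 (standard error 0.06, adjusted p 3.05e-10 in DESeq2). TMLHE, the first enzyme of carnitine synthesis, had means of 360 and 308 normalized counts and did not pass (adjusted p 0.0816 in DESeq2).

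**Figure D5:**
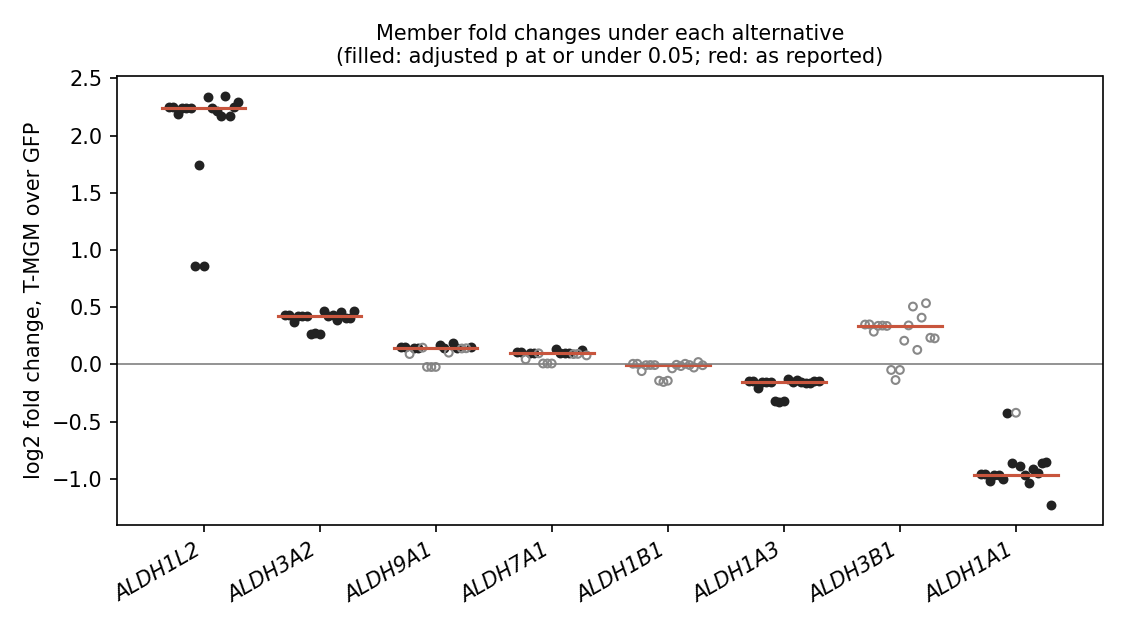
Log2 fold changes of 8 members under the 11 alternative analyses and the 6 fits that each left out one library; filled points had an adjusted p at or under 0.05, open points did not, and red lines are the values as reported. ALDH1L2, ALDH3A2 and ALDH1A3 stayed on one side of 0 with filled points throughout, while ALDH7A1 and ALDH9A1 lost their calls under several alternatives.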

How the data were processed

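RNA sequencing was analysed for 6 libraries of WM164 cells, 3 per group, with groups and replicate numbers taken from the sample titles. The authors trimmed reads with cutadapt 1.8.1, aligned them to GRCh38 with STAR 2.7.7a and deposited whole-number counts of uniquely aligned reads per gene (featureCounts) and TPM values (RSEM 1.3.0), with replicates not pooled. The annotation release is not given in the sources used here. The labels name a library kit without strand and the methods a kit with strand information, so counts of genes that overlap on opposite strands are uncertain. Nothing states that libraries of a group came from separate cultures, so p-values measure only the spread between these libraries, which may be technical.

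The deposited counts were tested on the whole table with DESeq2 1.42.0 in R 4.3.3: group as the only term, median-of-ratios scaling, a 2-sided Wald test, no shrinkage, independent filtering at 0.05 and Benjamini-Hochberg adjustment over all genes. The parametric dispersion trend was replaced by a local fit. Both thresholds are an adjusted p at or under 0.05 and an absolute log2 fold change over 1. Fold changes are T-MGM over GFP. An undefined adjusted p was kept undefined, and genes without one were not counted as tested. TPM served for levels and, on a log2 scale with limma 3.58.1, for alternatives. No fold is given for members with a mean normalized count under 10. Intervals cover the fit only, and a floor of 3 counts covers counting error only.

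The members and lists were chosen with earlier results of these data known. Genes named were all ALDH genes; in each list, those past both thresholds and the 3 next by absolute Wald statistic; and the 3 most like the leading member in pattern among genes with a mean of at least 50. Some genes that this rule names are not reported here. Gene positions are from GENCODE release 44 on GRCh38, which held 99.4% of the identifiers. Alternatives were edgeR 4.0.16, TMM or total-count scaling, a minimum of 10 counts in 3 libraries, a fit without independent filtering, a fit with replicate numbers as blocks, limma on log2(TPM + 1) or log2(TPM + 0.1) with a minimum TPM of 0.5 in 3 libraries or none, and each library left out; offsets for GC content and length (lowess span 0.3) and edgeR with its own filter completed them. The steps were tested on simulated counts.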

Additional observations from a re-analysis of the deposited data

How the results depend on the processing

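The count of 6 members past the adjusted p threshold was 6 under 6 of the alternatives, 4 with total counts as scaling and in the filtered TPM fits, and 3 on log2(TPM + 1) without a filter, where more low genes were tested. It was 4 to 6 when a library was left out. The single member past both thresholds, ALDH1L2, became 2 with total counts as scaling, where ALDH1A1 passed 2-fold at -1.02, 1 to 2 when a library was left out, and 0 on log2(TPM + 1) with or without a filter, since that scale compresses low levels. The 33 genes called over the pathway lists were 26 to 31 without a library and 20 on log2(TPM + 1) without a filter. Of the 33, 21 were higher and 12 lower, against 8 and 19 in the filtered TPM fits and 15 and 15 with total counts as scaling. Over all genes, 7350 were called in the main fit, 6461 to 6623 without a library and 4295 in that TPM fit. Ranked by counts per kilobase of exon, 4 of 10 members in GFP and 3 in T-MGM libraries kept their place.

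Signs turned in a few small differences. ALDH1B1 moved to 0.0057 in edgeR and 0.0058 with TMM factors, and lay between -0.0275 and 0.021 without a library. On the TPM scale the median gene stood at -0.13 with a pseudocount of 1 and at -0.15 with a pseudocount of 0.1. There ALDH3B1 turned to -0.048 (pseudocount 1, with or without a filter) and -0.136 (pseudocount 0.1). ALDH9A1 turned to -0.0217 and -0.0227, ALDH6A1 to -0.0136 and -0.0212, and DGAT1 to -0.0431 and -0.0453. DGAT1 was also at -0.0111 with offsets for GC content and length. Over all genes, 50% of the calls were higher in T-MGM libraries, against 38.7% with total counts as scaling and 20.8 to 21.8% in the TPM fits. The causes were not tested. Genes past both thresholds numbered 885, but 133, 369 and 126 in the TPM fits. With p-values from leaving out a library, ALDH7A1 was lost without GFP replicate 3, T-MGM replicate 1 or T-MGM replicate 3, and ALDH9A1 without GFP replicate 1, T-MGM replicate 1 or T-MGM replicate 2.

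The replicate numbers did not pair the libraries, since deviations of same-numbered libraries correlated at -0.007, -0.058 and 0.029. With the replicate block 4 members passed, 1 of them over 2-fold, and ALDH7A1 (DESeq2 adjusted p of 0.0739) and ALDH9A1 (0.0695) did not; over all genes 735 passed both thresholds. Depth limits ALDH1A2 and ALDH2, whose counts lie near the floor.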

Other observations

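Fold changes of the other genes within 10 Mb of each member (mean normalized count of at least 50), added after the data were seen, had medians between -0.11 and 0.03 for 9 of the members. ALDH3B1 was the exception, with a median of 0.23 over 259 genes. Beside ALDH1L2 the 111 neighbours had a median of -0.09, and beside ALDH1A1 the 37 neighbours had a median of -0.10. ALDH1A3-AS1, the antisense gene that shares exons with ALDH1A3, had 67, 110 and 64 counts in GFP libraries and 111, 132 and 156 with T-MGM, and did not pass (DESeq2 adjusted p of 0.233).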
